A study of Homo sapiens with 2 samples.

Results

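Glycolysis, glucose transport and hypoxia genes were examined in PC9 cells as a set of 33 genes, chosen by name from the 16642 genes of the deposited table. All 33 were found by exact symbol, and all passed the minimum level used below, 20 normalized counts on average over both libraries. A normalized count is a read count divided by a scaling factor of its library. The set comprises 23 genes of glucose uptake, glycolysis and lactate handling, the hypoxia-inducible factor gene HIF1A, and 9 genes known to be induced by low oxygen. The TAZ4SA library came from PC9 cells expressing an active mutant of TAZ, the transcriptional co-activator encoded by WWTR1, from a lentiviral Tet-On system. Per the labels, expression was switched on with doxycycline at 50 ng/mL for 24 h. The control library came from PC9 cells labelled as control. PC9 is an established human lung adenocarcinoma line with an activating EGFR deletion. Both libraries share 1 protocol text, in which transduction with the control Tet-On plasmid, the TAZ4SA plasmid or both is given without saying which cells received which, and doxycycline is not stated separately for the control. An effect of doxycycline or of the vector therefore cannot be told apart from one of TAZ4SA. The medium of both was RPMI supplemented with pyruvate (1 mM), HEPES (10 mM), glucose (0.2%) and serum (10% FBS). The sources used here do not state the oxygen level.

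Glycolysis splits glucose into pyruvate in the cytosol, and lactate dehydrogenase interconverts pyruvate and lactate. Tumour cells often run the pathway fast even with oxygen present. When oxygen is low, HIF1A protein escapes hydroxylation and degradation, pairs with ARNT and binds DNA motifs with the core ACGTG or GCGTG. Its known targets include many glycolytic genes as well as genes of blood vessel growth, acid handling and mitophagy. HIF1A is controlled mainly through protein stability, so its mRNA level does not report its activity.

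Each group had 1 library, with 29668388 reads recovered for TAZ4SA and 47684754 for control. The conditions could therefore not be tested, and the spread between cultures is unknown. Each range in brackets is a 95% interval that covers counting error only. WWTR1 stood at 15628 normalized counts with TAZ4SA and 4933 in control, 3.17-fold higher (3.07 to 3.27). All 6 epithelial markers checked were abundant in both libraries, between 16008 and 89793 normalized counts in TAZ4SA and between 13220 and 74904 in control. Of 9 markers of other cell types, 2 reached the minimum, COL1A1 of fibroblasts (490 normalized counts with TAZ4SA and 413 in control) and CDH5 of endothelium (1362 with TAZ4SA and 1589 in control). The endothelial marker VWF had 7.25 with TAZ4SA and 18.0 in control, and the other 6 were not in the table, among them all 3 leukocyte markers. Their part in the results was not tested. In such bulk RNA, fewer cells of a type and less RNA per cell cannot be told apart.

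Of the 33 genes, 23 lay within 1.2-fold between the 2 libraries, and a few stood far apart. The glucose transporter gene SLC2A3, the peptide hormone gene ADM and the low-level gene ANKRD37 were at least 1.5-fold higher with TAZ4SA. The carbonic anhydrase genes CA9 and CA12 and the aldolase gene ALDOC were at least 1.5-fold lower. A gene was counted as higher or lower where it passed the fold and its counting interval excluded a ratio of 1. These counts of 3 higher and 3 lower of 33 compare with 4.19% of the 14074 genes at the minimum level that were higher by this rule and 4.47% that were lower. With the smaller threshold of 1.2-fold, 5 of the 33 were higher and 5 lower, against 10.3% and 12.4% of all genes. With a minimum mean of 100, which leaves out ANKRD37, 2 were higher and 3 lower by 1.5-fold, against 2.84% and 3.34% of all genes, 6.18% together, and 4 higher and 5 lower by 1.2-fold, against 10.1% and 12.9%, 23% together. At the minimum of 20, 22.7% of all genes were counted as higher or lower by the 1.2-fold rule. By the fold alone, 69.7% of the 33 lay within 1.2-fold, and so did 69% of all genes. Past 1.5-fold by the fold alone were 18.2% of the 33 and 10.5% of all genes. The set was thus near the background at 1.2-fold, while its share past 1.5-fold was larger. That larger share rests on 6 genes, 1 of them the low-level ANKRD37. The members were chosen with earlier results of these data known, so it is not an independent result. The 33 were also more abundant, with a median mean of 6187 normalized counts against 1133 for all genes. The median log2 ratio of the 33, TAZ4SA over control, was -0.05, and that of all genes at the minimum was 0.00019.

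**Figure D1:**
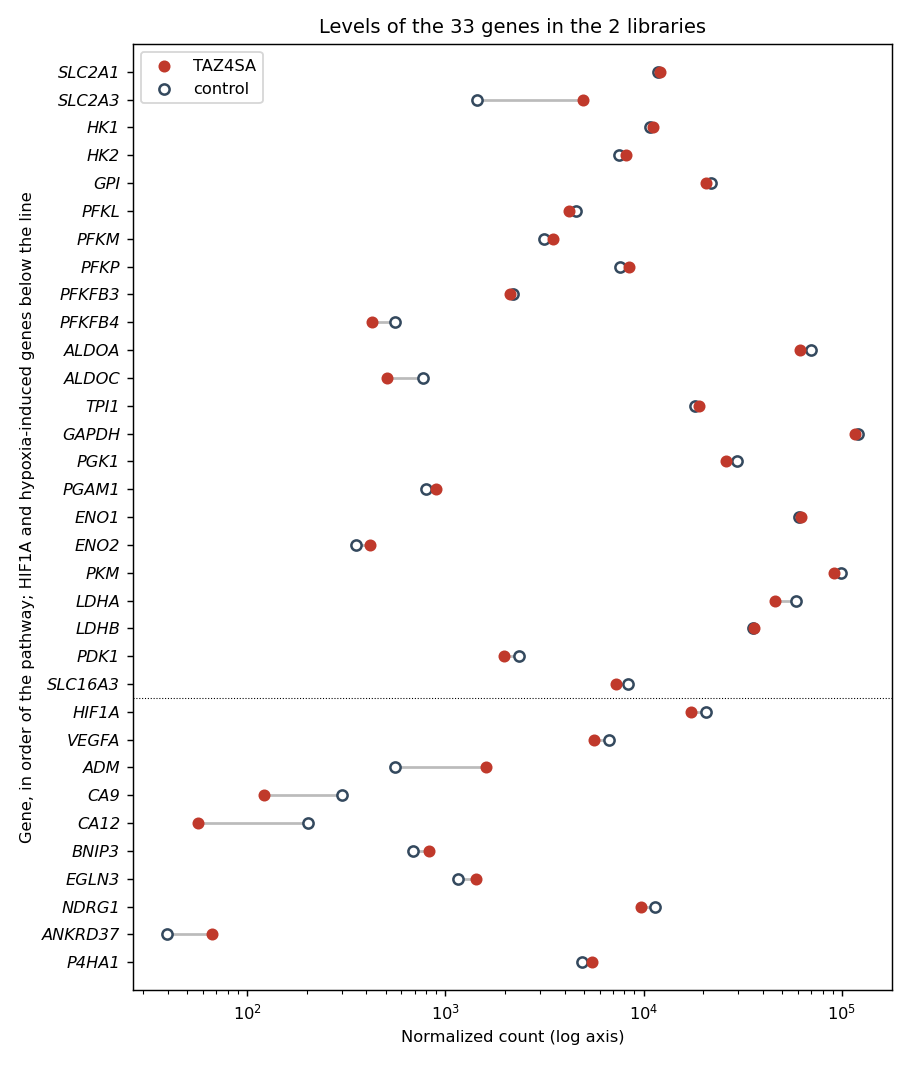
Normalized counts (log axis) of the 33 genes in the TAZ4SA library (filled red) and the control library (open), with a grey line joining the libraries of a gene. Most pairs lie close together, such as GAPDH at 116780 with TAZ4SA and 120627 in control, whereas those of SLC2A3, ADM, CA9 and CA12 stand apart.

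Glucose enters cells through facilitative transporters, of which SLC2A1 encodes the widespread basal form and SLC2A3 a high-affinity form best known from neurons. SLC2A3 (ENSG00000059804) had 4959 normalized counts in the TAZ4SA library, against 1449 in the control library. This difference of 3.42-fold (3.23 to 3.63), on 3419 TAZ4SA and 1610 control reads, was the highest ratio of the 33 genes, and 82 of all 14074 genes had a higher one. SLC2A1 (ENSG00000117394) had 12154 normalized counts with TAZ4SA and 11784 in control, 1.03-fold higher (1.003 to 1.06). SLC2A1 was thus nearly level while SLC2A3 was not. Of the reads of both genes, SLC2A3 held 29% (28.2 to 29.8, exact binomial) with TAZ4SA and 10.9% (10.4 to 11.5) in control, an odds ratio of 3.32 (3.11 to 3.55). Per kilobase of exon, SLC2A1 remained the more abundant transcript in both libraries, at 2573 against 805 normalized counts per kilobase for SLC2A3 with TAZ4SA, and 2495 against 235 in control. The summed level of the pair per kilobase was 1.24-fold higher with TAZ4SA, 3378 against 2730 normalized counts per kilobase. The close paralog SLC2A14 was not analysed here, and reads shared with it make the SLC2A3 value uncertain.

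Of the first steps after uptake, the members differed little, while HKDC1, a further hexokinase gene outside the set, was 1.55-fold lower (1.5 to 1.59). Hexokinases trap glucose as glucose 6-phosphate. HK1, the housekeeping form, had 11182 normalized counts with TAZ4SA and 10785 in control, and HK2, the inducible form prominent in tumours, had 8123 with TAZ4SA and 7510 in control. HK2 was 1.08-fold higher (1.05 to 1.12), and its share of the reads of HK1 and HK2 was 42.1% with TAZ4SA and 41.0% in control, with an odds ratio of 1.04 (0.998 to 1.09) whose interval includes 1. With HKDC1 counted too, an alternative chosen after seeing the data, HK2 held 28.7% (28.1 to 29.4) with TAZ4SA and 23.3% (22.9 to 23.8) in control, an odds ratio of 1.32 (1.27 to 1.38). The isomerase gene GPI stood at 20663 with TAZ4SA and 21867 in control. Phosphofructokinase commits sugar to glycolysis and is built from subunits of 3 genes. PFKP, the platelet-type subunit, was 1.12-fold higher (1.08 to 1.16) at 8478 normalized counts with TAZ4SA and 7568 in control, and PFKM, the muscle-type subunit, was 1.11-fold higher (1.06 to 1.17) at 3510 with TAZ4SA and 3153 in control. PFKL, the liver-type subunit, was 1.08-fold lower (1.03 to 1.13) at 4196 with TAZ4SA and 4546 in control. The subunits thus went apart by small amounts: PFKP held 52.4% of their reads (51.5 to 53.3) with TAZ4SA and 49.6% (48.8 to 50.3) in control.

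The enzymes encoded by PFKFB3 and PFKFB4 set the level of fructose 2,6-bisphosphate, the strongest known activator of phosphofructokinase. PFKFB3, with mainly kinase activity, had 2109 normalized counts with TAZ4SA and 2198 in control, and its interval included a ratio of 1. PFKFB4 was 1.30-fold lower (1.13 to 1.5) at 425 normalized counts with TAZ4SA and 554 in control, on 293 TAZ4SA and 616 control reads. It was the gene nearest to the 1.5-fold threshold among those that did not reach it.

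Aldolase splits the sugar into triose phosphates. ALDOA, the main form, had 61898 normalized counts with TAZ4SA and 69538 in control and was 1.12-fold lower (1.11 to 1.14). ALDOC (ENSG00000109107), the brain form and a known hypoxia-responsive gene, was 1.52-fold lower (1.34 to 1.73) at 506 normalized counts with TAZ4SA and 770 in control. ALDOC was the only one of the 17 glycolytic and lactate dehydrogenase enzyme genes past 1.5-fold, just inside the threshold, and made up 0.811% of aldolase reads with TAZ4SA and 1.10% in control. The summed aldolase level per kilobase was 1.13-fold lower, set almost wholly by ALDOA.

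The payoff steps, which make ATP and NADH, were even, with all 6 genes from GAPDH to PKM within 1.2-fold. Per kilobase of exon, GAPDH was the most abundant of the 33 in both libraries, at 39175 normalized counts per kilobase with TAZ4SA and 40465 in control. TPI1, which interconverts the triose phosphates and leads into them, was 1.06-fold higher (1.04 to 1.08) at 19132 normalized counts with TAZ4SA and 18079 in control. GAPDH, which oxidizes glyceraldehyde 3-phosphate and is often used as a reference transcript, had 116780 with TAZ4SA and 120627 in control, 1.03-fold lower (1.02 to 1.04). PGK1, which yields the first ATP, was 1.14-fold lower (1.12 to 1.16) at 26019 with TAZ4SA and 29624 in control. Those intervals are narrow because the read numbers are large, and say nothing of how far separate cultures would differ. The mutase gene PGAM1 had 896 normalized counts with TAZ4SA and 800 in control. This is far below its neighbours in the pathway also per kilobase, at 349 normalized counts per kilobase with TAZ4SA and 311 in control, against 4720 with TAZ4SA and 5374 in control for PGK1. Near-identical processed copies of PGAM1 are known, which makes its level uncertain. The 1 copy in the table, PGAM1P7, had 11 reads with TAZ4SA and 8 in control. Enolase removes water to form phosphoenolpyruvate. ENO1, the general form, was 1.03-fold higher (1.02 to 1.04) at 62598 with TAZ4SA and 60766 in control, and ENO2, the neuronal form, 1.18-fold higher (1.01 to 1.37) at only 415 with TAZ4SA and 353 in control. PKM, encoding the pyruvate kinase of most tissues and tumours, was 1.08-fold lower (1.07 to 1.09) at 91797 with TAZ4SA and 99229 in control, and its splice forms are not separated in the table.

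At the branch from pyruvate to lactate, the 2 dehydrogenase genes differed from each other. LDHA, whose subunit favours lactate formation, was 1.27-fold lower (1.26 to 1.29), at 46253 normalized counts with TAZ4SA and 58875 in control. LDHB, whose subunit favours the reverse reaction, had 36250 with TAZ4SA and 35774 in control, and its interval included a ratio of 1. The LDHB share of their reads was 43.9% (43.5 to 44.3) with TAZ4SA and 37.8% (37.5 to 38.1) in control, an odds ratio of 1.29 (1.26 to 1.32). Per kilobase of exon, LDHB was the more abundant of the pair in both libraries, with 62.0% of the summed level with TAZ4SA and 55.8% in control. That order, the reverse of the read shares, depends on merged exon lengths, 2983 bases for LDHB and 6210 for LDHA. SLC16A3, a lactate exporter of glycolytic cells, was 1.16-fold lower (1.12 to 1.2) at 7260 with TAZ4SA and 8394 in control. PDK1, the kinase that switches off pyruvate dehydrogenase, was 1.19-fold lower (1.11 to 1.27) at 1980 with TAZ4SA and 2347 in control. LDHA, SLC16A3 and PDK1, all known HIF1A targets, were thus each modestly lower. The other glycolysis genes chosen here as HIF1A targets had no common direction. SLC2A3, ENO2, HK2 and SLC2A1 were higher, ALDOC and PFKFB4 were lower, and the interval of PFKFB3 included a ratio of 1. That balance depends on the choice, which left out other glycolytic genes. Among those, PGK1, ALDOA, PKM, GAPDH and PFKL were 1.03 to 1.14-fold lower, and ENO1 and TPI1 were 1.03 and 1.06-fold higher.

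**Figure D2:**
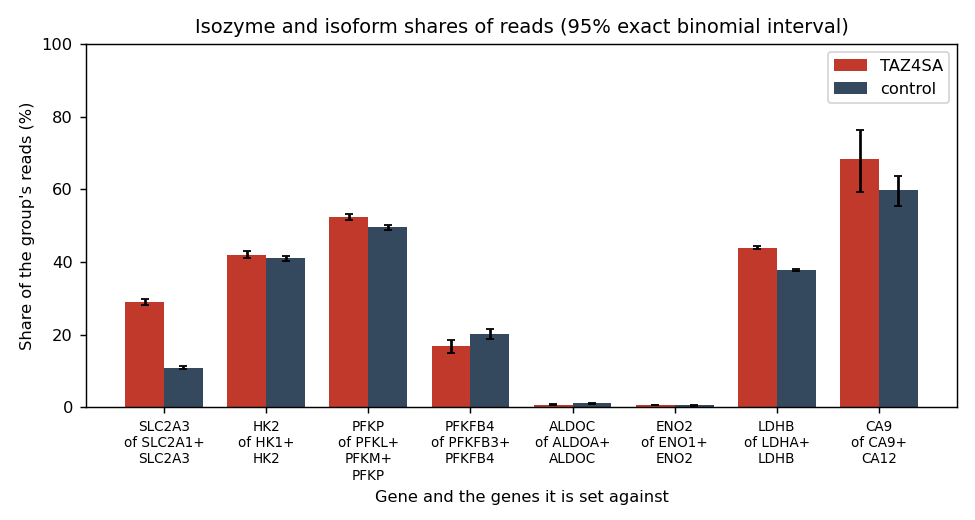
Share of reads (%) held by 1 gene among the genes it is set against, in the TAZ4SA library (red) and the control library (dark blue), with 95% exact binomial intervals of counting error. The SLC2A3 share is 29% with TAZ4SA and 10.9% in control and the LDHB share 43.9% with TAZ4SA and 37.8% in control, while the intervals of HK2, ENO2 and CA9 overlap between the libraries.

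Summed by step per kilobase over the members, the ratios of the 11 enzyme steps from hexokinase to lactate dehydrogenase ran from 0.878 at phosphoglycerate kinase to 1.12 at phosphoglycerate mutase, and glucose transport stood above them at 1.24. The hexokinase step changed direction when HKDC1 was added: its ratio was 1.06 with HK1 and HK2 alone and 0.84 with all 3, below the other enzyme steps. The 17 enzyme genes had 9 log2 ratios above 0 and 8 below, with a median of 0.02. The 9 genes from hexokinase to triosephosphate isomerase had a median of 0.05, and the 6 from GAPDH to PKM a median of -0.002. These genes showed no common direction along the pathway. All 23 glycolysis and transport genes together took 1.27% of the reads of the TAZ4SA library and 1.34% of those of the control library. Of the 33 genes, 25 had a mean of at least 1000 normalized counts, and 84% of these were within 1.2-fold, against 82.3% of all 7423 genes at that level.

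**Figure D3:**
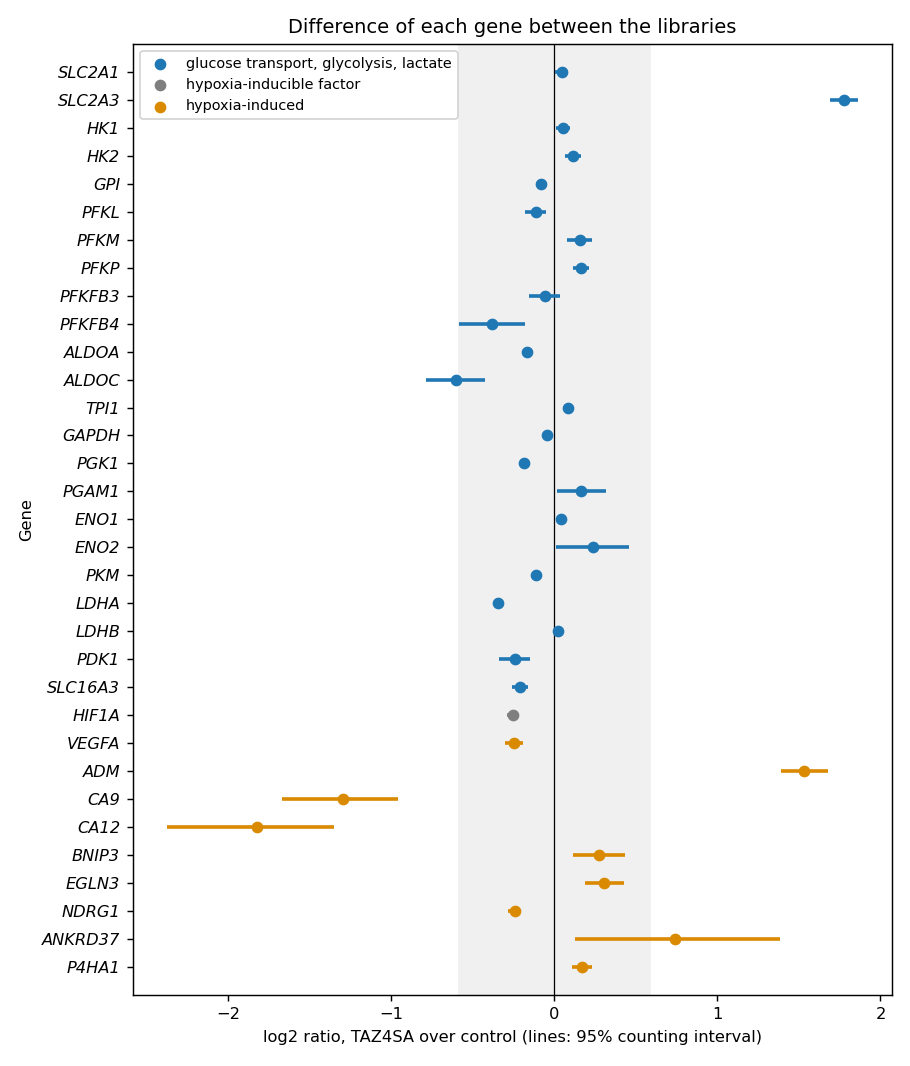
The log2 ratio (TAZ4SA over control) of each of the 33 genes, with lines for the 95% counting interval and a grey band for ratios within 1.5-fold. Glycolysis genes (blue) cluster near 0 apart from SLC2A3 at 1.77, whereas hypoxia-induced genes (orange) spread from -1.83 for CA12 to 1.53 for ADM.

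The hypoxia-induced genes spread further and went both ways. HIF1A (ENSG00000100644) itself had 17273 normalized counts with TAZ4SA and 20648 in control, 1.195-fold lower (1.17 to 1.22). Of the 9 induced genes, 5 had log2 ratios above 0 and 4 below, 2 were at least 1.5-fold higher and 2 lower, and the median was 0.17. ADM (ENSG00000148926), which encodes the vasodilator adrenomedullin, had 1613 normalized counts in the TAZ4SA library, against 558 in the control library. It was 2.89-fold higher (2.62 to 3.2), on 1112 TAZ4SA and 620 control reads, and 112 of all genes had a higher ratio. ANKRD37, an ankyrin repeat gene, was 1.69-fold higher (1.09 to 2.61) at 66.7 normalized counts with TAZ4SA and 39.6 in control, a value that rests on 46 TAZ4SA and 44 control reads.

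The membrane carbonic anhydrases, which help hypoxic tumour cells to export acid, were lower. CA9 (ENSG00000107159), one of the most widely used hypoxia markers, had 122 normalized counts in the TAZ4SA library, against 301 in the control library, 2.47-fold lower (1.94 to 3.18). CA12 (ENSG00000074410) had 56.6 with TAZ4SA and 203 in control and was 3.59-fold lower (2.55 to 5.19), on 39 TAZ4SA and 226 control reads. Only 38 genes of the 14074 had a lower ratio than CA12. Both are low in these cells, with 73.0 normalized counts per kilobase for CA9 with TAZ4SA and 180 in control, and 7.74 for CA12 with TAZ4SA and 27.8 in control. CA9 held 68.3% of the reads of the pair with TAZ4SA (59.3 to 76.4) and 59.7% in control (55.5 to 63.8), and the interval of the odds ratio, 0.944 to 2.26, includes 1.

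The other 5 induced genes were closer to level. EGLN3, an oxygen-sensing hydroxylase that marks HIF1A for degradation, was 1.24-fold higher (1.14 to 1.34) at 1435 normalized counts with TAZ4SA and 1160 in control. BNIP3, which promotes mitophagy, was 1.21-fold higher (1.08 to 1.35) at 828 with TAZ4SA and 685 in control. P4HA1, a collagen prolyl hydroxylase subunit, was 1.13-fold higher (1.08 to 1.17) at 5480 with TAZ4SA and 4869 in control. On the other side, VEGFA, the main growth factor for blood vessels, was 1.19-fold lower (1.14 to 1.24) at 5653 with TAZ4SA and 6722 in control. NDRG1, a stress-responsive gene strongly induced by hypoxia, was likewise 1.19-fold lower (1.15 to 1.22) at 9676 with TAZ4SA and 11468 in control. The 3 hypoxia-induced genes with the most reads, NDRG1, VEGFA and P4HA1, therefore stayed within 1.2-fold, and CA9, CA12 and ANKRD37 rest on the fewest.

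Set against each other, the medians were 0.17 for the 9 hypoxia-induced genes and -0.05 for the 23 glycolysis genes, a difference of 0.22 on the log2 scale. This difference rests on few genes: with a minimum mean of 100, which leaves out ANKRD37, it was 0.0095, and with means in place of medians it was -0.08. When 9 glycolytic genes chosen as HIF1A targets were moved to the hypoxia side, it was 0.0063. The 9 were SLC2A1, SLC2A3, HK2, PFKFB3, PFKFB4, ALDOC, ENO2, PDK1 and SLC16A3. LDHA, also a known target, stayed on the glycolysis side, as did PGK1, ALDOA, ENO1, PKM and others, so the choice was partial. The value of 0.0063 therefore does not set all HIF1A targets against other genes. The groups also differed in spread, as 4 of 9 hypoxia-induced genes and 2 of 23 glycolysis genes were higher or lower by the 1.5-fold rule, by which 8.66% of all genes were. No test of this difference in counts was made, since the genes are not replicates. The groups differed in level too, with a median mean of 1085 normalized counts for the 9 and 8023 for the 23. At a minimum mean of 100, the share of all genes past the 1.5-fold rule was 6.18%. The part of level in the difference in spread was not tested.

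The promoters of the genes past 1.5-fold are shown so that the HIF cores they hold can be set beside their ratios. RefSeq windows (GRCh38.p14, 250 bases before to 50 after a transcript start) were matched by symbol for 30 of the 33 genes, with 57 windows in all. SLC2A3, VEGFA and NDRG1 were not matched. In the sequences, capitals mark ACGTG or GCGTG, the AP-1 motif TGACTCA and the TEAD motif GGAATG, each searched on both strands. An ACGTG can overlap the E-box CACGTG, which holds it on both strands, and other factors bind that motif too. The sequences run in the direction of the gene.
ADM (chr11:10304823-10305122, plus strand): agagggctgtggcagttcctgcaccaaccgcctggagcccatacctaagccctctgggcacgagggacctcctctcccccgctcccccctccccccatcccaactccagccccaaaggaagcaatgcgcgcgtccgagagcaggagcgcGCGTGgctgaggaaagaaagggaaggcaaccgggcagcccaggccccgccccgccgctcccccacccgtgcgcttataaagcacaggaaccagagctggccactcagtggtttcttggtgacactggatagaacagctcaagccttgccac
ANKRD37 (chr4:185396591-185396890, plus strand): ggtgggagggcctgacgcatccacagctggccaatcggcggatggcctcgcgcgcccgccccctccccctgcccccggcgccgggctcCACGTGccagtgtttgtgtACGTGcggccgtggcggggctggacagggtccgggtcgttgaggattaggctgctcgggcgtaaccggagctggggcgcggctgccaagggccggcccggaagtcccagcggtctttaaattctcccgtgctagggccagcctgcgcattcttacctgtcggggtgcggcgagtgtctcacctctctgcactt
CA9 (chr9:35673678-35673977, plus strand): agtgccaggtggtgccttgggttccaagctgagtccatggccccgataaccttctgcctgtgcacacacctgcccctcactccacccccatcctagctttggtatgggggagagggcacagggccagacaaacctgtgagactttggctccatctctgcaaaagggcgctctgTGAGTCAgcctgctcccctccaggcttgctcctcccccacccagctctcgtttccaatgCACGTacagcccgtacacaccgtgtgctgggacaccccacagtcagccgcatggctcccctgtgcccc
CA12 (chr15:63381797-63382096, minus strand): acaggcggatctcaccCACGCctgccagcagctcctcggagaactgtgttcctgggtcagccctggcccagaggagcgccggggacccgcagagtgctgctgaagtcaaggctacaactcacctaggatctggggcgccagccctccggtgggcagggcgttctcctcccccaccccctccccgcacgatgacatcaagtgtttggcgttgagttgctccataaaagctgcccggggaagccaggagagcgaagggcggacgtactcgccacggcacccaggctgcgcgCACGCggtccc
ALDOC (chr17:28576846-28577145, minus strand): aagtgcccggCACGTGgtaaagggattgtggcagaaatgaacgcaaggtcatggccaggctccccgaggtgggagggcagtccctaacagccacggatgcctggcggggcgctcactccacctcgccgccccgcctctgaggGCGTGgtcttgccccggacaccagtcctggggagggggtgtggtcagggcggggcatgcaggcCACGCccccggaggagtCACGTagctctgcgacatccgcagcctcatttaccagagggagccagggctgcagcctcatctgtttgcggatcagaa
Positions count from the start site, with negative ones before it. ANKRD37 holds ACGTG at positions -162, -161 and -143, the first pair of which forms a single E-box. CA9 holds ACGTG on the reverse strand at -18, and a reverse-strand AP-1 motif at -77. ALDOC holds both cores, with 5 matches, of which those at -240 and -239 form a single E-box. ADM holds GCGTG at -101, and CA12 holds GCGTG on the reverse strand at -234 and at 40. Among these windows, each core was found in genes on either side of a ratio of 1. Since 48.4% of all windows hold a core, so few windows cannot show whether cores go with direction, which was not tested. The GGAATG motif matched in 0 of these 5 windows.

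Across all 57 windows of the 30 matched genes, 66.7% held at least 1 of the HIF cores, compared with 48.4% of all 35116 windows in the table. By gene, 28 of the 30 had a core in at least 1 window, against 52.4% of all 27305 genes, but the 30 genes have more windows each. For ACGTG alone the shares were 38.6% of these windows and 21.4% of all. For GCGTG they were closer, 40.4% and 36.5% of all, and for GGAATG 10.5% and 14% of all. These matches describe letters in a window, not bound sites.

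The genes around the pathway were described from 9 further lists, with the same rules. By these, 4.19% of all genes were higher and 4.47% lower at 1.5-fold, and 10.3% were higher and 12.4% lower at 1.2-fold. Of 8 measured genes of the pentose phosphate pathway, which makes NADPH and ribose from glucose 6-phosphate, 0 were higher and 1 lower by 1.5-fold, against 4.19% and 4.47% of all genes. At 1.2-fold, 1 was higher and 5 were lower, against 10.3% and 12.4%. The median log2 ratio was -0.27. PGD, an NADPH-forming enzyme, was lowest at 1.60-fold (1.55 to 1.65), with 8520 normalized counts with TAZ4SA and 13628 in control. The transketolase gene TKT was 1.34-fold lower (1.32 to 1.37). RPIA, of the branch that makes ribose, was 1.26-fold higher (1.18 to 1.35). Gluconeogenesis genes had a median of -0.24 over 5 measured genes, and 0 passed 1.5-fold. Its lowest were PC, encoding pyruvate carboxylase, 1.47-fold lower (1.33 to 1.62), FBP1, fructose bisphosphatase, 1.32-fold lower, and the glucose 6-phosphate transporter gene SLC37A4, 1.18-fold lower.

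Among 7 other glycolysis genes measured, HKDC1 was the 1 past 1.5-fold, at 8980 normalized counts with TAZ4SA and 13904 in control. Per kilobase of exon, HKDC1 stood above HK1 and HK2 in both libraries, at 2109 normalized counts per kilobase with TAZ4SA and 3265 in control. HK1 had 1776 with TAZ4SA and 1713 in control, and HK2 had 1340 with TAZ4SA and 1239 in control. The order of HKDC1 and HK1 depends on merged exon lengths, 4259 bases for HKDC1 and 6296 for HK1. Not divided by length, HK1 stood above HKDC1 with TAZ4SA, at 11182 against 8980 normalized counts. In control it stood below, at 10785 against 13904. Of the same list, PFKFB2 was 1.28-fold higher and C12orf5, the gene now called TIGAR whose product lowers fructose 2,6-bisphosphate, 1.29-fold higher. Among 6 other glucose transporters measured, SLC2A12 was 1.64-fold lower (1.36 to 2.0) on 149 TAZ4SA and 395 control reads, and 0 were at least 1.2-fold higher. SLC2A3 was therefore the 1 transporter gene of the 8 measured that was higher by that much.

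Of 18 genes of pyruvate and lactate handling, 2 passed 1.5-fold upwards and 0 downwards, against 4.19% and 4.47% of all genes, and the median was -0.05. EMB, which encodes embigin, a partner protein of monocarboxylate transporters, was 1.96-fold higher (1.74 to 2.21) at 891 normalized counts with TAZ4SA and 453 in control. SLC16A1, the main lactate transporter of most cells, was 1.28-fold higher (1.25 to 1.31) at 18970 with TAZ4SA and 14783 in control, opposite in direction to SLC16A3, while its partner BSG was level at 20142 with TAZ4SA and 20064 in control. None of the 12 measured glycogen genes passed 1.5-fold (median -0.05). The lowest were PYGB, a glycogen phosphorylase, at 1.39-fold lower, PPP1R3B at 1.35-fold and PGM1 at 1.30-fold. All 6 genes of glucose sensing lay within 1.2-fold. Their largest ratios were those of MYC, 1.17-fold higher, MLXIP, 1.16-fold lower, and ARRDC4, 1.08-fold higher, and TXNIP, a transcript known to follow glucose supply closely, had 9156 normalized counts with TAZ4SA and 9490 in control.

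A wider list of 30 measured hypoxia-induced genes had a median log2 ratio of 0.04, and 1 gene was higher and 4 were lower by the 1.5-fold rule, against 4.19% and 4.47% of all genes. TMEM45A, a transmembrane protein gene, was 3.11-fold higher (2.73 to 3.54) at 986 normalized counts with TAZ4SA and 318 in control. BHLHE41, a clock-related repressor, was 2.05-fold lower (1.95 to 2.16) at 2798 with TAZ4SA and 5732 in control. Its paralog BHLHE40 was 1.62-fold lower (1.49 to 1.76), LOX, a collagen cross-linking enzyme gene, 1.62-fold (1.43 to 1.85) and PPFIA4 1.77-fold (1.2 to 2.68). As in the set of 9, members of the wider list stood on both sides, and 18 of 30 were within 1.2-fold, which is 60% against 69% of all genes. Among 12 measured genes of the HIF system, CITED2, which competes with HIF1A for its co-activators, was 1.97-fold higher (1.87 to 2.07) at 4713 with TAZ4SA and 2393 in control. EPAS1, encoding the related factor HIF-2 alpha, was 1.198-fold higher (1.17 to 1.23), opposite in direction to HIF1A. ARNT2, encoding an alternative HIF partner, was the 1 gene of this list lower by the 1.2-fold rule, at 1.30-fold (1.15 to 1.48), while ARNT, VHL and EGLN1 were within 1.2-fold.

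**Figure D4:**
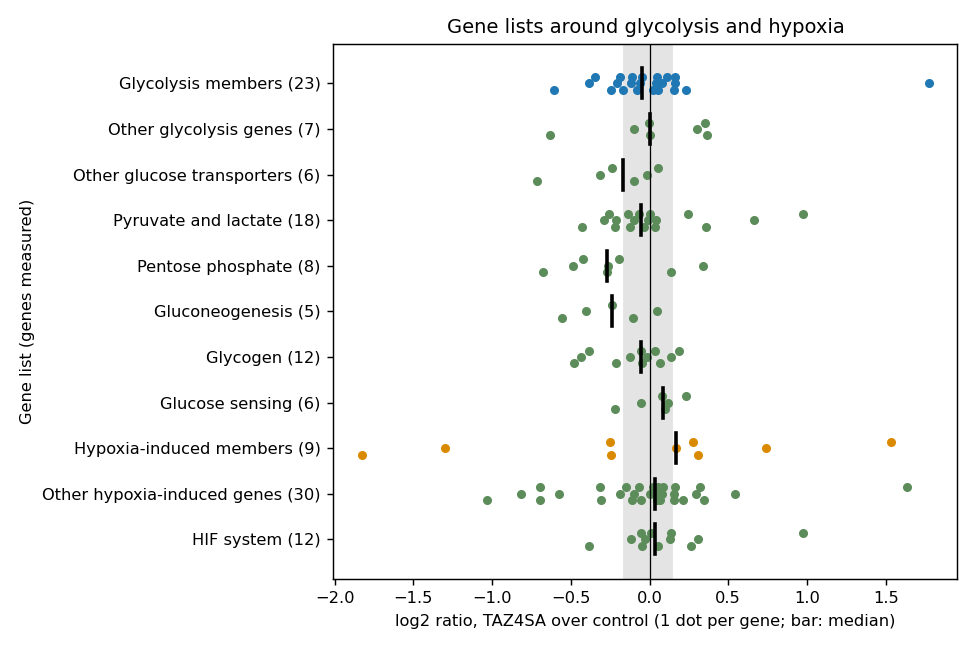
The log2 ratio (TAZ4SA over control) of each measured gene in 11 gene lists, with a bar at each list's median and a grey band for the middle 50% of all 14074 genes. The pentose phosphate, gluconeogenesis and other glucose transporter medians, -0.27, -0.24 and -0.17, lie left of the band, that of the 9 hypoxia-induced genes, 0.17, lies right of it, and hypoxia-induced genes reach far to both sides.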

How the data were processed

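Per the submitters' processing notes, the tools were Trim Galore, STAR, HTSeq and DESeq2 with build GRCh37. Versions, settings and library strand are not given there. The signal columns, as deposited by the authors, hold normalized counts, each library having 1 scaling factor. Dividing by each column's smallest step gave whole reads for 100% of values, within 0.01 reads, with factors of 0.689 for TAZ4SA and 1.11 for control. The authors' deposited log2 fold changes differed by at most 0.000136 from log2 ratios of those columns. How genes entered the table is not given.

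Here, log2 ratios used log2(normalized count + 1), which understates differences of low genes, and folds used no pseudocount. Intervals are exact conditional binomial (Clopper-Pearson) and cover counting error only, since reads are not independent molecules. The threshold was 1.5-fold with an interval excluding 1, and a mean of at least 20. With 1 library per group, edgeR and DESeq2 gave scaling factors only, no count test could be run on the recovered reads, and no p-value is reported. Levels per kilobase used the merged exons of GENCODE 29 (GRCh38) by gene identifier, including rarely used exons. The members, lists and rules were chosen with earlier results of these data known. The text names all 33 members, WWTR1, list genes past 1.5-fold and otherwise up to 3 per list with the largest ratios. Others (RPIA, BSG, TXNIP, EPAS1, ARNT, ARNT2, VHL, EGLN1, SLC16A1, TKT and further genes below 1.5-fold) were named after their values were seen. Some list genes are counted but not reported here by name. Calculations were tested on simulated data and used edgeR 4.0.16 and DESeq2 1.42.0 in R 4.3.3, and scipy 1.17.1, pandas 2.3.3, numpy 2.4.6 and matplotlib 3.10.9 in Python 3.11.15.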

Additional observations from a re-analysis of the deposited data

How the results depend on the processing

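Alternatives covered scaling (TMM, upper quartile, DESeq2 median of ratios, total counts), pseudocounts of 0.1, 0.5 and 5, the minimum level, and the membership of the lists. All 231 alternative log2 ratios of the 33 genes stayed within their counting intervals, and the largest shift of the all-gene median, under total counts, was -0.0043. The number of genes at least 1.5-fold higher was 3 in all runs except at a minimum mean of 100, where ANKRD37 dropped out and it was 2; the number lower was 3 throughout. At 1.2-fold, 4 or 5 were higher and 5 lower. List medians near 0 did change sign: the glycolysis value ran from -0.06 to 0.01, the hypoxia-induced value from -0.07 to 0.17, and their difference from -0.08 to 0.23. Order-statistic intervals over the genes were -0.17 to 0.08 and -1.30 to 0.74 for the lists. They reflect the spread among genes, which are not replicates, so values within them do not show that the medians are stable. Of 34 alternative isozyme shares, 16 left the counting interval, 14 from counting per kilobase, by construction, and 2 for HK2 from adding HKDC1 to the hexokinases, which was chosen after seeing the data. Adding HKDC1 also turned the ratio of the hexokinase step, to 0.84; adding pseudogene reads moved none beyond it. No paired analysis was possible because a lone library stands for either condition, and leaving out a replicate was not possible for the same cause. Depth limits CA12 and ANKRD37 most.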

Other observations

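Genes named as pseudogenes of 7 of the 33 genes were in the table, 16 in all. Their summed levels were small beside the parent genes. The 4 LDHA pseudogenes came to 1.18% of LDHA with TAZ4SA and 1.24% in control, and the 6 GAPDH pseudogenes to 0.501% of GAPDH with TAZ4SA and 0.507% in control. LDHAP7, at 421 normalized counts with TAZ4SA and 548 in control, was 1.30-fold lower (1.13 to 1.5), close to the 1.27-fold of LDHA, and reads of such copies cannot be told apart from those of the parent with certainty.

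The antisense gene HIF1A-AS2 had 22 reads with TAZ4SA and 3 in control, a ratio of 11.8 (3.55 to 61.7) after scaling, while HIF1A itself was 1.195-fold lower. HIF1A-AS1 had 9 reads in either library. HIF1A-AS2 stood at 31.9 normalized counts with TAZ4SA and 2.70 in control. Both antisense genes lay below the minimum mean of 20 used above, and a link to the HIF1A level was not tested. The sources do not state strand handling, so reads of overlapping genes cannot be separated.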
